A study of Mus musculus with 6 samples.

Results

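The circadian clock genes Per1, Per2, Per3, Nr1d1, Nr1d2, Dbp, Tef, Cry1, Npas2 and Ciart were followed across 6 mouse RNA-seq libraries whose labelled source is the intervertebral disc. Of these 10 genes, 4 could be given a level (Per2, Per3, Nr1d2 and Tef), among 10905 gene loci with one. The 10 were chosen by their levels in these same libraries, so the levels are given as a description and without a test. A gene received a level when a counted row of the files, its intervals read as GRCm38 positions, had at least 80% of its exon bases, and at least 100 bases, on that gene. Counts of such rows were summed and divided by the library's total count to give CPM, the usual depth-scaled count. A row with its own gene's symbol was not enough: the 10 rows that bear the members' symbols had 0 bases on exons of those genes.

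There were 3 libraries labelled intervertebral disc degeneration and 3 labelled wild type, all from C57BL/6 mice and made from total RNA of frozen disc. The labels name neither what brought about degeneration, nor sex, hour of dissection, lighting, or whether each library came from its own animal, so replicate spread may be technical. The series' design text gives an age of 21 days, but for retinal RNA, and the sample labels give none. Totals ran from 3119215 to 3451759 counts in degeneration libraries and from 3317474 to 4009562 in wild type libraries. A floor of 3 counts corresponds to 0.869 to 0.962 CPM in degeneration libraries and to 0.748 to 0.904 CPM in wild type libraries.

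The libraries stood apart in a way that goes against their labels. The 8 located striated and heart muscle markers of 10 listed summed to 41830, 52.4 and 51.0 CPM in degeneration 1 to 3, against 38700, 40840 and 40840 CPM in wild type 1 to 3. The 6 located kidney tubule markers of 8 summed to 49.1, 10370 and 8252 CPM in degeneration 1 to 3, against 38.2, 33.3 and 45.2 CPM in wild type 1 to 3. The 5 located disc and cartilage markers of 7 summed to 11.02, 11.9 and 13.1 CPM in degeneration 1 to 3, against 21.2, 17.9 and 16.6 CPM in wild type 1 to 3, and none of the 5 was at 0 in all 6 libraries. Levels below are therefore given library by library. In bulk RNA, fewer cells of a type and less RNA per cell cannot be told apart.

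In the mammalian clock, the transcription factors ARNTL (BMAL1) and CLOCK, or NPAS2 in place of CLOCK, bind E-boxes and drive the genes of their own repressors. PER and CRY proteins feed back on that pair, and CIART also represses it. NR1D1 and NR1D2 (REV-ERB alpha and beta) repress Arntl through response elements that RORA activates, while DBP and TEF bind D-boxes. As a result Arntl and Npas2, and more weakly Clock, are known to peak at an opposite phase to Nr1d1, Nr1d2, Dbp, Tef and the Per genes in most mouse tissues, and the question here was whether those phases oppose each other between libraries.

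Promoters of the clock genes were searched for short motifs of the loop, and are printed for the 4 genes whose levels the comparison of phases turns on. Each is the 250 bases before an annotated start, 5′ to 3′ on the gene's strand, from RefSeq on GRCm38.p6, with matches in capitals. The letters searched on both strands were CACGTG (E-box), TTATGTAA or TTACGTAA (D-box), AGGTCA (the half-site shared by ROR and REV-ERB receptors) and TGACGTCA (CRE). No 2 of these motifs overlap in the windows printed. Of 32851 mouse promoter windows of 300 bases, which also take in 50 bases after the start, 7.15% held the E-box, 1.06% the D-box, 16.3% the half-site and 1.79% the CRE.
Per3, chr4:151044666-151044915, minus strand: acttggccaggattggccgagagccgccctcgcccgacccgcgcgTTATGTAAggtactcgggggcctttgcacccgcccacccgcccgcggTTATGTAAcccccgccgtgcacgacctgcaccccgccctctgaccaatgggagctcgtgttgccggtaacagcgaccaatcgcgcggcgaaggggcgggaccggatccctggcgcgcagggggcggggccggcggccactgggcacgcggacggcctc
Nr1d2, chr14:18239107-18239356, minus strand: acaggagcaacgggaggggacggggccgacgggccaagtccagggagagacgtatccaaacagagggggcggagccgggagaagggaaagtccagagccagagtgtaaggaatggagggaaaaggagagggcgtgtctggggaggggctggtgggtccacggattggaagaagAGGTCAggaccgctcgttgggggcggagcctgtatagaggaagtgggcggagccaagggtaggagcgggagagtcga
Tef, chr15:81802423-81802672, plus strand: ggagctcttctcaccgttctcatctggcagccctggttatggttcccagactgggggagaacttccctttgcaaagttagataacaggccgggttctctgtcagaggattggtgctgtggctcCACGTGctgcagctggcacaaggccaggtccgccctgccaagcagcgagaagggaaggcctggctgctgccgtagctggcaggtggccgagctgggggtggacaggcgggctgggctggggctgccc
Arntl, chr7:113207215-113207464, plus strand: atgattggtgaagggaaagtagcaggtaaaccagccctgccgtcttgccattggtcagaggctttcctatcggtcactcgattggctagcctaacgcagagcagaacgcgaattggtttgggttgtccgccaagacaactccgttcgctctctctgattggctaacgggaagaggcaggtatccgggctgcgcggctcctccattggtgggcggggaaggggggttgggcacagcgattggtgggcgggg

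The Per3 window held 2 D-boxes, which begin 205 and 158 bases before the start. The Nr1d2 window held 1 half-site, 77 bases before the start, and the Tef window 1 E-box, 127 bases before it. A second Tef start also had an E-box, 138 bases before it. The Arntl window held none of the 4 motifs, and a second Arntl start, farther along the gene, had a half-site 32 bases after it. Among members without a level, the Ciart window held 3 E-boxes, at 116, 58 and 44 bases, and those of Cry1 and Per1 held 1 each, at 60 and 166 bases. The Per1 window also held a half-site, at 137 bases, and a second Per1 start had none of the 4 motifs. The windows of Nr1d1, Dbp and Npas2 held none of the 4 motifs. In all, 9 of the 10 members had a promoter entry, Per2 being the exception. A match is a run of letters in a window and was not tested as a site.

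What was counted for each gene was a small part of it. For Arntl it was a row of 2331 bases lying wholly inside the gene, of which 100 are exonic, namely the 17th of 20 exons of the transcript, and 2231 intronic. That exon is printed since it is the whole of the exonic sequence behind every Arntl value.
Arntl exon, chr7:113306027-113306126, plus strand: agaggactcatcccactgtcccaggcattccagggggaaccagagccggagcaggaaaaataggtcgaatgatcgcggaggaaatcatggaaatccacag
For Per3 the row covered 1621 exon bases, of which 198 are coding and 106 are untranslated, the other 1317 belonging to non-coding transcripts of the gene. The row also holds 949 intronic bases and 152 bases outside the gene. The longest coding stretch under it is exon 17 of 21.
Per3 exon, chr4:151012375-151012542, minus strand: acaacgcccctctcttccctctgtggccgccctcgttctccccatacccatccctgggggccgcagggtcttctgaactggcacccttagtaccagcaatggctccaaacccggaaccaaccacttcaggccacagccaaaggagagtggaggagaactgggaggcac
For Nr1d2 the row lay wholly in the gene, with 643 exon bases, 235 of them coding, and 1117 intronic bases. Its longest coding stretch is exon 6 of 8.
Nr1d2 exon, chr14:18211779-18211964, minus strand: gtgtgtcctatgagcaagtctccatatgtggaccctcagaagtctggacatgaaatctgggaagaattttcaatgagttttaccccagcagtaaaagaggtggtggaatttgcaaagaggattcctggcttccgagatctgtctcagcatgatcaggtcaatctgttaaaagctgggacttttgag
Exonic and intronic reads of a row could not be separated, so a level may hold both mature and unspliced RNA. Levels of 1 gene are compared between libraries, and levels of different genes are not compared as expression.

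Among the repressor genes, Per3 varied most. Per3 (chromosome 4, 151003652 to 151044665, minus strand; row named Tnfrsf9) encodes a PERIOD protein. It stood at 66.7, 64.3 and 75.0 CPM in degeneration 1 to 3, against 24.7, 12.3 and 76.9 CPM in wild type 1 to 3. Wild type 1 and 2 were the low libraries, and wild type 3 lay among, and slightly above, the degeneration libraries, so the groups overlapped. The Wilson 95% counting interval reached 30.1 CPM at most in wild type 1, and began at 56.4 CPM in degeneration 2, the lowest of the other 4 libraries. The group means were 68.7 ± 5.61 CPM for degeneration and 37.95 ± 34.3 CPM for wild type (SD, n = 3 each). The log2 fold change was 0.64 ± 0.65 (SE), and with 1 library left out it ran from 0.20 (without wild type 2) to 1.67 (without wild type 3), with 0.37 without wild type 1.

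Nr1d2 (chromosome 14, 18204054 to 18239127, minus strand; row named Gm3138), the gene of the nuclear receptor REV-ERB beta, stood at 101.7, 79.4 and 105.2 CPM in degeneration 1 to 3, against 58.6, 41.1 and 124.5 CPM in wild type 1 to 3. The libraries came in the same order as for Per3: wild type 2 and 1 lowest, then degeneration 2, 1 and 3, and wild type 3 highest. The highest level was 3.03 times the lowest for Nr1d2, and 6.25 times for Per3. Means were 95.4 ± 14.0 CPM in degeneration and 74.7 ± 44.0 CPM in wild type (SD, n = 3 each), with a log2 fold change of 0.15 ± 0.45 (SE). With 1 library left out it ran from -0.16 (without wild type 2) to 0.73 (without wild type 3), so it has no fixed sign.

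Per2 (chromosome 1, 91415982 to 91459324, minus strand; row named Gm19085), the gene of a second PERIOD protein, was counted over 1631 untranslated bases. The row also holds 531 bases outside the gene. It stood at 14.8, 16.5 and 19.2 CPM in degeneration 1 to 3, against 17.0, 12.02 and 22.0 CPM in wild type 1 to 3. Wild type 2 was lowest and wild type 3 highest, as for Per3 and Nr1d2, but wild type 1 lay in the middle. Its highest level was 1.83 times its lowest, and the means were 16.8 ± 2.24 CPM in degeneration and 17.0 ± 4.99 CPM in wild type (SD, n = 3 each). The log2 fold change was -0.23 ± 0.26 (SE), and ran from -0.45 (without wild type 2) to -0.02 (without wild type 3).

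Tef (chromosome 15, 81802421 to 81826863, plus strand; row named Csdc2), the gene of the D-box-binding thyrotroph embryonic factor, stood at 53.5, 92.7 and 119.3 CPM in degeneration 1 to 3, against 45.1, 27.4 and 57.3 CPM in wild type 1 to 3. Wild type 2 and 1 were again lowest, but degeneration 2 and 3 stood above the other 4 libraries. Those 2 libraries are the ones with kidney tubule markers, whose part in the Tef level was not tested. Of the row's 4623 bases, 460 are Tef exon and 4068 lie outside the gene, which makes Tef the least certain of the 4 levels. Means were 88.5 ± 33.1 CPM in degeneration and 43.3 ± 15.0 CPM in wild type (SD, n = 3 each), with a log2 fold change of 0.77 ± 0.32 (SE), or 0.50 without wild type 2 and 1.01 without wild type 3.

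**Figure D1:**
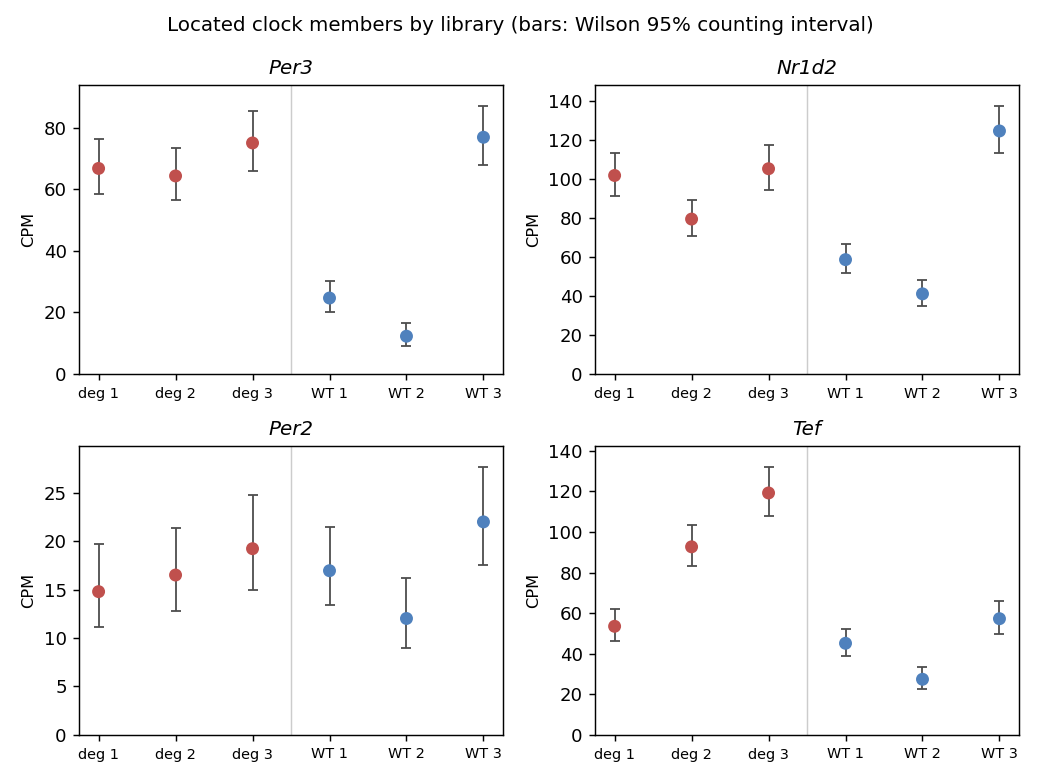
CPM of Per3, Nr1d2, Per2 and Tef in each library (degeneration red, left; wild type blue, right), with bars for the Wilson 95% interval of counting error. Wild type 1 and 2 are the lowest libraries for Per3, Nr1d2 and Tef, and wild type 3 lies with or above the degeneration libraries for Per3 and Nr1d2.

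The other 6 members have no level. No row had an exon base of Nr1d1, Cry1, Npas2 or Ciart. The row over Per1 had 880 bases on it, 47.3% of the exon bases under the row. The row over Dbp had 164 bases, 7.04% of its exon bases. Most of what those rows count may thus be other genes. The Per1 row stood at 13.85, 19.99 and 10.3 CPM in degeneration 1 to 3. In wild type 1 to 3 it stood at 32.4, 17.6 and 13.87 CPM, highest in wild type 1, where Per3 was low. The Dbp row stood at 121.8, 145.1 and 146.5 CPM in degeneration 1 to 3. In wild type 1 to 3 it stood at 72.1, 66.8 and 100.7 CPM, lowest in wild type 2 and 1, as Per3 was. Neither row gives a level of its gene. For Npas2, the partner of ARNTL that can stand in for CLOCK, 3 rows lie wholly inside the gene without meeting an exon. Together they held 8, 6 and 6 counts in degeneration 1 to 3, against 32, 32 and 19 in wild type 1 to 3. As CPM these were 2.52, 1.74 and 1.92 in degeneration and 7.98, 8.95 and 5.73 in wild type. These rows were looked up after the values of the other genes had been seen, and 1 of them also lies on another annotated gene, so they give no level of Npas2.

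The activator side was read from 18 further clock genes, of which 7 had a level and 6 were tested. Arntl (chromosome 7, 113207465 to 113314126, plus strand; row named Gm5600) stood at 12.9, 11.6 and 11.9 CPM in degeneration 1 to 3, against 32.9, 22.1 and 14.2 CPM in wild type 1 to 3. Wild type 1 and 2 were the high libraries, and wild type 3 lay just above the degeneration libraries, with an interval (10.7 to 18.8 CPM) that overlaps that of degeneration 1 (9.52 to 17.5 CPM). Means were 12.1 ± 0.70 CPM in degeneration and 23.1 ± 9.41 CPM in wild type (SD, n = 3 each), and the log2 fold change was -1.12 ± 0.35 (SE), which did not pass the edgeR quasi-likelihood test (adjusted p = 0.232). Over the 15 fits in which it was tested, the adjusted p ran from 0.00415, without degeneration 1, to 0.606. The sign was the same in each of them. Arntl and Timeless were the further clock genes with every degeneration library below every wild type library, as were 9.39% of all tested loci by CPM and 11.7% under the scaling of the test. No member was placed so, and none had every degeneration library above, as were 11.6% and 10.4% of loci.

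Clock, the partner of ARNTL, stood at 31.2, 31.3 and 29.5 CPM in degeneration 1 to 3, against 41.4, 25.7 and 24.4 CPM in wild type 1 to 3, and was counted over 512 untranslated bases. Wild type 1 alone stood above the rest, and the log2 fold change was -0.19 ± 0.26 (SE; adjusted p = 0.672, edgeR quasi-likelihood test). Rora, the receptor that activates Arntl through the half-site, stood at 109.6, 140.8 and 156.1 CPM in degeneration 1 to 3, against 99.0, 69.3 and 120.0 CPM in wild type 1 to 3. Its rows span 17.629 kb, of which 2772 bases are exonic and the rest lie in introns or outside the gene. Wild type 2 and 1 were lowest in the sum, as for Per3 and Nr1d2, with a log2 fold change of 0.26 ± 0.22 (SE; adjusted p = 0.504), or 0.05 without wild type 2 and 0.44 without wild type 3. That order came from a row with 367 exonic and 11222 intronic bases. The row of 1578 exon bases held 110, 69 and 87 counts in wild type 1 to 3. The row of 827 exon bases held 40, 15 and 25. In both, wild type 3 lay below wild type 1 by CPM, so the mostly exonic counts did not share the order. Timeless, best known for replication fork protection, stood at 3.78, 1.74 and 1.60 CPM in degeneration 1 to 3, against 4.99, 5.03 and 5.43 CPM in wild type 1 to 3. Its groups did not overlap, but the log2 fold change of -1.28 ± 0.48 (SE) had an adjusted p of 0.242, ranging from 0.00197 (without degeneration 1) to 0.611 over 15 fits. Csnk1d, a kinase of PER proteins, stood at 12.3, 19.4 and 18.9 CPM in degeneration 1 to 3, against 16.7, 14.54 and 15.4 CPM in wild type 1 to 3. Its log2 fold change was -0.12 ± 0.17 (SE; adjusted p = 0.676), or -0.19 without wild type 2. Btrc, an adaptor of the ubiquitin ligase that degrades PER proteins, stood at 61.4, 97.6 and 92.3 CPM in degeneration 1 to 3, against 67.8, 60.96 and 73.2 CPM in wild type 1 to 3. Its log2 fold change was 0.07 ± 0.14 (SE; adjusted p = 0.773). The groups overlapped for both genes. Rorb, a ROR receptor, was near the floor, at 4.41, 1.45 and 1.60 CPM in degeneration 1 to 3, against 0.499, 1.12 and 2.11 CPM in wild type 1 to 3.

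**Figure D2:**
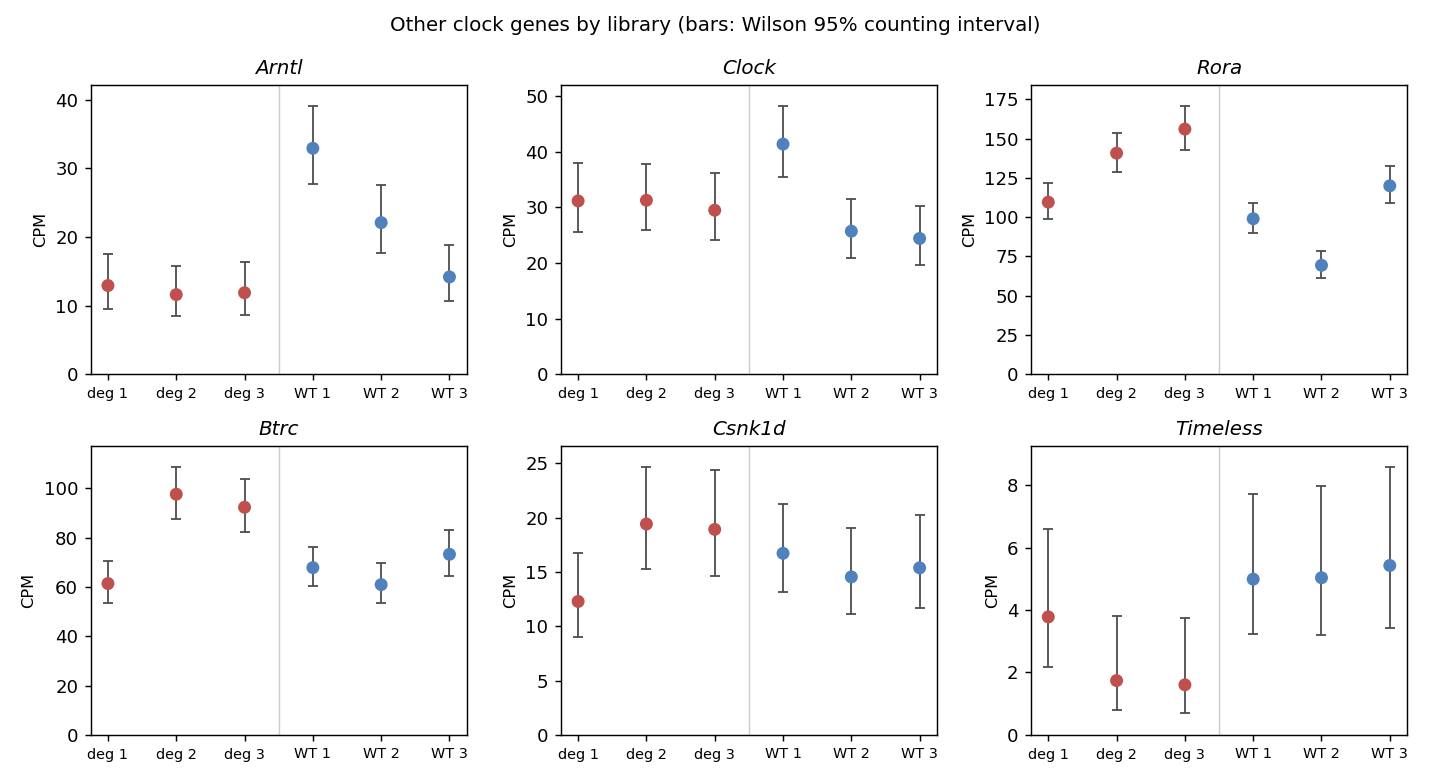
CPM of 6 further clock genes in each library (degeneration red, left; wild type blue, right), with Wilson 95% counting intervals; each axis starts at 0. Arntl is highest in wild type 1 and 2 and between 11.6 and 14.2 CPM in the other 4 libraries.

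The test of degeneration against wild type, run over 5429 loci and not read for the members, called 0 of the 6 further clock genes and 0.00% of all loci. At an unadjusted p under 0.05 it had 2 of the 6 further clock genes (Arntl and Timeless, both lower) and 1064 loci. DESeq2 called 5.23% of the loci it tested, with 0 further clock genes among them, and limma-trend called 0 loci. The median log2 fold change was 0.40 over the members, -0.16 over the further clock genes and -0.00026 over all loci. Leaving out 1 library moved the median over the members between 0.02 (without wild type 2) and 0.87 (without wild type 3), and that over the further clock genes between -0.26 (without degeneration 1) and -0.05 (without wild type 1). Without degeneration 1, 53.0% of loci were called: 26.8% higher and 26.2% lower. Arntl and Timeless were then the 2 further clock genes called, both lower, in a fit that sets the libraries with kidney tubule markers against those with muscle markers.

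The phases were compared within libraries, by the share of Arntl in the summed counts of Arntl and 1 other clock gene. Such a share needs no scaling between libraries, though it also depends on how much of each gene is counted. With Per3, the Arntl share was 16.2%, 15.3% and 13.7% in degeneration 1 to 3, against 57.1%, 64.2% and 15.6% in wild type 1 to 3. The exact 95% binomial intervals were 50.5 to 63.6% in wild type 1 and 55.1 to 72.7% in wild type 2, and ended at 21.3% or below in the other 4 libraries. Wild type 1 and 2 thus stood apart from the other 4, and wild type 3 had a share within the intervals of degeneration 1 to 3. The pairs of genes were chosen after their values had been seen, and the pattern does not follow the labelled groups.

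The same split was seen with Nr1d2, for which the Arntl share was 11.3%, 12.7% and 10.1% in degeneration 1 to 3, against 36.0%, 35.0% and 10.2% in wild type 1 to 3. With Tef it was 19.4%, 11.1% and 9.05% in degeneration 1 to 3, against 42.2%, 44.6% and 19.8% in wild type 1 to 3. With Per2 it was 46.6%, 41.2% and 38.1% in degeneration 1 to 3, against 66.0%, 64.8% and 39.2% in wild type 1 to 3. In each of these 3 pairs, too, wild type 1 and 2 were the highest libraries. The pairs all hold the same Arntl counts, themselves highest in wild type 1 and 2 by CPM. They are thus not separate evidence of opposed phases. Clock in place of Arntl gave a share with Per3 of 31.8%, 32.7% and 28.2% in degeneration 1 to 3, against 62.6%, 67.6% and 24.1% in wild type 1 to 3. The highest Clock level was 1.70 times the lowest. Between the partners, Arntl made up 29.3%, 27.0% and 28.7% of the counts of Arntl and Clock in degeneration 1 to 3, against 44.3%, 46.2% and 36.7% in wild type 1 to 3. Wild type 1 and 2 were thus highest with a partner as well. A high Arntl share there cannot by itself tell opposed phases from a higher Arntl level alone. Between the repressors, Nr1d2 made up 60.4%, 55.2% and 58.4% of the counts of Nr1d2 and Per3 in degeneration 1 to 3, against 70.4%, 77.0% and 61.8% in wild type 1 to 3. Per3 was thus the more reduced of these repressors in wild type 1 and 2.

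**Figure D3:**
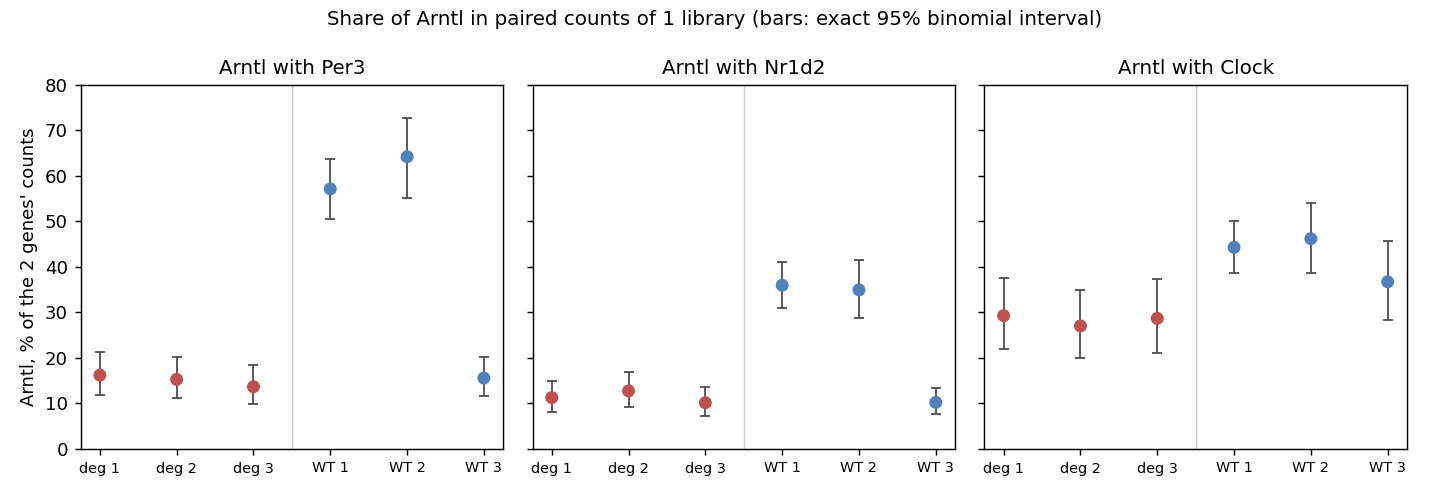
Share of Arntl, in percent, in the counts of Arntl and Per3, Arntl and Nr1d2, and Arntl and Clock of each library (degeneration red, left; wild type blue, right), with exact 95% binomial intervals. Wild type 1 and 2 have Arntl shares of 57.1% and 64.2% with Per3, and the other 4 libraries of 13.7% to 16.2%.

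Of the 4 members, 3 (Per3, Nr1d2 and Tef) had their 2 lowest libraries in wild type 1 and 2, as 12.1% of all tested loci had, or 11.3% under the scaling of the test. A gap of at least 2-fold between those libraries and the other 4 was found at 10 loci, 0.184%, of which Per3 is 1. Among the further clock genes, Arntl was highest in wild type 1 and 2, as 10.2% of loci were, or 12.9% under the scaling of the test. Rora and Rorb went the other way, lowest in wild type 1 and 2 by CPM. Under the scaling of the test Rora alone did so, and Rorb was near the floor. Since these genes were picked with this pattern known, the shares are background and nothing is read from the counts of members.

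Marker lists were set beside these levels, and only the annulus and tendon list had the library order of Arntl. The 4 located annulus and tendon fibroblast markers of 5 listed (Col1a1, Col1a2, Tnmd and Mkx), none at 0 in all 6 libraries, summed to 537.5, 375.5 and 424.5 CPM in degeneration 1 to 3, against 2379, 1117 and 595.3 CPM in wild type 1 to 3. That is the order of the libraries for Arntl, and its part in the Arntl level was not tested. The kidney tubule, disc and cartilage, notochord, red cell and macrophage markers did not have that order. The muscle markers did not have it over the 6 libraries either. Among degeneration 1 and wild type 1 to 3, all at 38700 CPM or more, they were lowest in wild type 1 and highest in degeneration 1. Arntl ran the other way there, highest in wild type 1 and lowest in degeneration 1. Per3 in these libraries ran from 12.3 to 76.9 CPM. Per3 stood at 66.7 CPM in degeneration 1, which has muscle markers, and at 64.3 and 75.0 CPM in degeneration 2 and 3, which have kidney tubule markers. The part of tissue content in the Arntl and Per3 levels was not tested.

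The loci whose pattern over the 6 libraries was most like that of Per3 were Gm29642, Gm19461, Zc3h6, Gm2093 and Dmxl2, with a root mean square difference of centred log2(CPM + 1) of 0.41 to 0.47, among 5219 loci. Nr1d2 was at 0.47, Tef at 0.57, Per2 at 0.79, Clock at 1.02 and Arntl at 1.42. The loci most like Arntl were Gm17970, Plekhf1, Bgn, Grk5 and Gm48565, at 0.11 to 0.17 among 5218 loci, with Clock at 0.46, Per2 at 0.65, Nr1d2 at 0.99 and Tef at 1.11. Per2 was thus nearer to Arntl than to Per3 by this measure, which also grows with a difference in range. The highest level was 1.83 times the lowest for Per2, 2.84 times for Arntl and 6.25 times for Per3. Per2, like Per3, was lowest in wild type 2 and highest in wild type 3, whereas Arntl was highest in wild type 1. Bgn, the gene of the matrix proteoglycan biglycan, stood at 640.1, 694.4 and 750.8 CPM in degeneration 1 to 3, against 1526, 1007 and 732.5 CPM in wild type 1 to 3.

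Genes that the clock is known to drive did not share one pattern. Of 15 clock outputs, 8 had a level and 6 were tested, with 0 called by edgeR (0.00% of all loci), 1 at an unadjusted p under 0.05 (1064 of 5429 loci), and 1 called by DESeq2, higher (5.23% of all loci). Pdk4, a kinase that inhibits pyruvate dehydrogenase, stood at 473.5, 87.5 and 95.2 CPM in degeneration 1 to 3, against 1258, 1021 and 294.8 CPM in wild type 1 to 3. It was lowest in degeneration 2 and 3, the libraries with kidney tubule markers, and wild type 3 lay below degeneration 1. Its highest libraries were wild type 1 and 2, as for Arntl and for 10.2% of all tested loci by CPM. Klf9, a transcription factor also induced by glucocorticoids, stood at 119.3, 172.1 and 127.0 CPM in degeneration 1 to 3, against 121.0, 123.6 and 96.2 CPM in wild type 1 to 3. Usp2, a deubiquitinase, stood at 87.2, 64.3 and 51.0 CPM in degeneration 1 to 3, against 66.3, 50.6 and 63.3 CPM in wild type 1 to 3. The groups overlapped for both. Slc9a3, the sodium-proton exchanger of kidney and gut epithelium, stood at 4.72, 295.5 and 255.5 CPM in degeneration 1 to 3, against 3.74, 5.31 and 4.22 CPM in wild type 1 to 3, high in the libraries with kidney tubule markers. Without degeneration 1, 6 of 8 tested outputs were called, 4 higher and 2 lower, where 53.0% of all loci were.

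Glucocorticoids and acute stimuli can also move clock genes, so 2 lists of their targets were read beside them. Of 10 glucocorticoid-induced genes, 5 had a level and 4 were tested, with 0 called by edgeR (0.00% of all loci), 1 at an unadjusted p under 0.05 (1064 of 5429 loci), and 1 called by DESeq2, lower (5.23% of all loci). Cdkn1a, the cell cycle inhibitor p21, stood at 17.9, 7.24 and 8.34 CPM in degeneration 1 to 3, against 91.0, 94.8 and 19.6 CPM in wild type 1 to 3, so wild type 1 and 2 were highest here too. Degeneration 2 and 3 were lowest. Every degeneration library lay below every wild type library, as for 9.39% of all tested loci by CPM. Fkbp5, a classic glucocorticoid receptor target, stood at 21.7, 60.0 and 34.3 CPM in degeneration 1 to 3, against 44.6, 32.4 and 16.6 CPM in wild type 1 to 3, with no split of wild type 1 and 2 from the rest. Zbtb16, a zinc finger transcription factor, stood at 42.2, 9.27 and 4.49 CPM in degeneration 1 to 3, against 47.1, 39.1 and 30.4 CPM in wild type 1 to 3. Dusp1, a MAP kinase phosphatase, stood at 15.1, 5.50 and 4.49 CPM in degeneration 1 to 3, against 21.2, 16.2 and 12.1 CPM in wild type 1 to 3. Both were lowest in degeneration 2 and 3, the libraries with kidney tubule markers. Dusp1, like Cdkn1a, also had its highest levels in wild type 1 and 2, as 10.2% of all tested loci had by CPM. Of 8 immediate early genes, 3 had a level and 2 were tested, with 0 called by edgeR (0.00% of all loci) or by DESeq2 (5.23%) and 0 at an unadjusted p under 0.05 (1064 of 5429 loci). Fos, an AP-1 subunit induced within minutes of a stimulus, was at 2.20, 2.03 and 1.92 CPM in degeneration 1 to 3, against 4.74, 7.55 and 2.11 CPM in wild type 1 to 3. Its relative Junb stood at 21.1, 41.7 and 61.9 CPM in degeneration 1 to 3, against 33.7, 55.6 and 19.6 CPM in wild type 1 to 3. Ier2, another immediate early gene, was at 3.46, 8.98 and 3.85 CPM in degeneration 1 to 3, against 6.24, 8.39 and 4.82 CPM in wild type 1 to 3, highest in degeneration 2. Fos alone of these 3 had its highest levels in wild type 1 and 2. Without degeneration 1, 3 of 4 glucocorticoid-induced genes and 1 of 3 immediate early genes were called, all of them lower, where 26.2% of all loci were called lower.

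**Figure D4:**
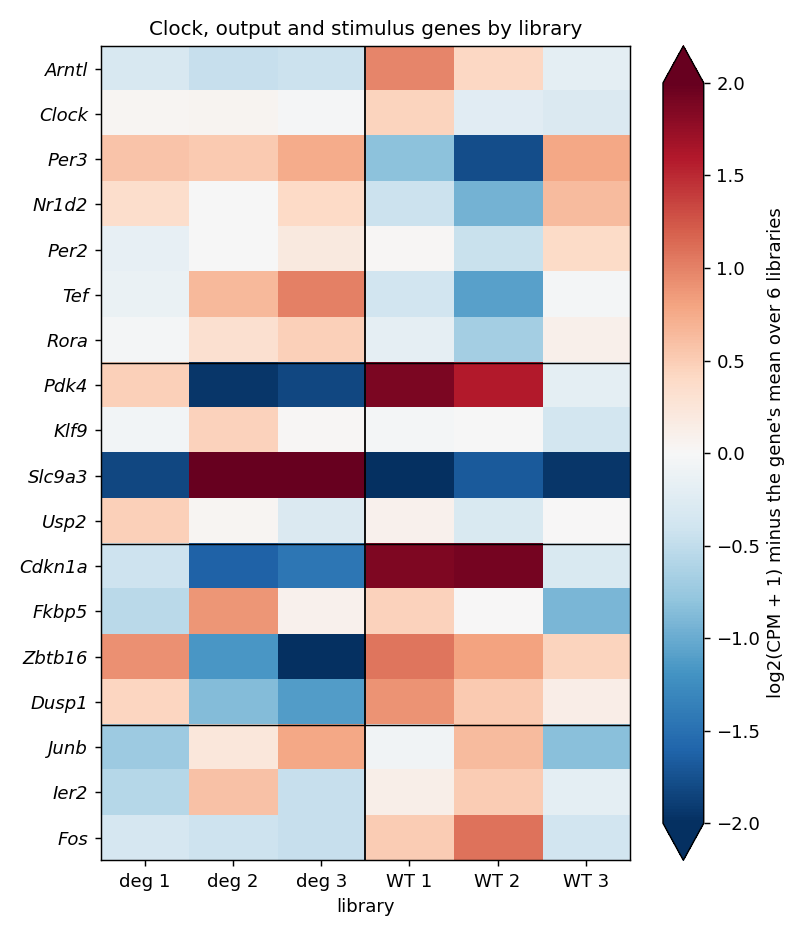
Log2(CPM + 1) of 18 clock, output and stimulus genes, centred on each gene's mean over the 6 libraries (degeneration left, wild type right; colours saturate at 2 units). Arntl, Pdk4 and Cdkn1a are high in wild type 1 and 2, where Per3 and Nr1d2 are low.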

How the data were processed

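RNA-seq counts of 6 libraries were used, 3 labelled degeneration and 3 labelled wild type. The deposited read counts were made with featureCounts 2.0.1, per the file headers, over exons summed by gene name; the genome build of the reads is not given in the headers. No strand option was set, so overlapping antisense genes cannot be told apart. Bowtie 0.12.2 and builds mm8 and mm9 appear, with no role given, per the submitters' processing notes. In the series-wide table, 12 value columns carry names that match no sample label and were left out.

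Rows were given to genes by position: intervals of the 53546 rows were read as GRCm38 and intersected with GENCODE M21 exons (bedtools 2.31.1, Python 3.11.15). A row took the gene holding at least 80% of its exon bases and at least 100 bases, or its own gene where at least 90% of its length lay on it. This located 13233 rows on 10905 loci, holding 49.8% to 58.6% of a library's counts. CPM was computed from file totals. The scaling of the test relative to totals was 0.887, 1.19 and 1.19 in degeneration 1 to 3, and 0.960, 0.908 and 0.915 in wild type 1 to 3.

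The comparison was edgeR 4.0.16 (R 4.3.3), quasi-likelihood test with TMM scaling, filterByExpr, no covariate, all 6 libraries and Benjamini-Hochberg adjustment with a threshold of 0.05. Each SE was obtained from the fold change and its test statistic. Alternatives were limma-trend (limma 3.58.1), DESeq2 1.42.0, edgeR with DESeq2 size factors, other filters, exon shares and minimum bases, the replicate number as a block, and each library left out. Intervals (Wilson for CPM, exact Clopper-Pearson for shares) and the floor of 3 counts cover only counting error and hold no spread between libraries. Without molecular identifiers, reads may be copies of the same molecule, so the intervals may be too narrow even for counting error.

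The members and gene lists were chosen with earlier results of these data known. Named genes were all members, every located further clock gene, and up to 4 genes of highest mean CPM in each other list; likeness took the 5 nearest loci with a mean of at least 5 CPM.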

Additional observations from a re-analysis of the deposited data

How the results depend on the processing

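The count of called loci, 0 with all 6 libraries, was 263 with DESeq2, and ran from 0 to 3158 when each library was left out, the 3158 being without degeneration 1; the cause was not tested. The count of called further clock genes ran from 0 to 2 when each library was left out, again without degeneration 1, where the log2 fold changes were -1.38 for Arntl and -1.997 for Timeless. When each library was left out, the log2 fold change of Clock ran from -0.41 (without degeneration 1) to 0.041 (without wild type 1), and that of Btrc from -0.016 (without wild type 2) to 0.12 (without wild type 3), so both changed sign. Per3 moved to 1.67 without wild type 3. Same-numbered libraries had correlations of -0.077, 0.094 and -0.115 in their deviations from the group means. Degeneration 1 differs from 2 and 3 in tissue markers, so these values cannot decide whether the numbers pair libraries. The labels name no pairing. With the replicate block, 0 loci and 0 further clock genes were called, with 678 loci at an unadjusted p under 0.05. Arntl could not be located when 300 exon bases were asked for. The planned ratio of Npas2 to Nr1d1 was not run, since neither gene was located, and Dbp could not replace Nr1d1; Arntl and Per3 were used, a choice made after seeing the data. In that ratio, Nr1d2 in place of Per3 moved the log2 value to -0.83 and -0.89 in wild type 1 and 2, and to -3.12 in wild type 3. In degeneration 1 it moved from -2.36 to -2.96. Clock in place of Arntl moved the value to -1.09, -1.04 and -1.34 in degeneration 1 to 3, and to -1.65 in wild type 3. Low counts limit Timeless and Rorb most.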
